A study of Mus musculus with 16 samples.

Results

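β-Klotho (Klb), the related α-klotho (Kl), the 4 FGF receptor kinases (Fgfr1, Fgfr2, Fgfr3 and Fgfr4), the ligands Fgf1 and Fgf21 and the carrier Fgfbp1 were followed by RNA-seq in KPC1199 cells with and without a guide against Sin3B. The 9 genes were taken by symbol from a list of names, out of 56989 features that carry a gene identifier in the deposited tables, and all 9 were present in both. The members were chosen by name with earlier results of these data known, selected on the genotype and IFNγ fold changes of the same libraries, so their levels and fold changes are given as a description without p-values.

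KPC1199 is a mouse pancreatic ductal adenocarcinoma line from the KPC model, in which Pdx-cre acts in the pancreas. Cells in all groups were grown in the same serum-containing medium and carried a stably selected lentiviral CRISPR vector with either a control guide (sgCtrL, genotype WT) or a guide against Sin3B (Sin3Bsg1, genotype Sin3B Knockout). The first experiment held 2 sgCtrL and 2 Sin3Bsg1 libraries with no treatment, and the second held 3 libraries each of sgCtrL and Sin3Bsg1 cells without IFNγ and with 10 ng/ml IFNγ for 24 h. Only 1 Sin3B guide was used, the labels do not say whether replicates were separate cultures or whether a line was 1 clone, and the p-values below measure the spread between these libraries.

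FGF receptors are tyrosine kinases that bind their ligands together with a partner at the cell surface. Paracrine ligands such as FGF1 use heparan sulfate chains, whereas the hormone-like ligands bind heparan sulfate weakly and need a klotho protein. β-Klotho pairs with FGFR1 or FGFR4 to receive FGF21 and FGF15 and is best known from liver, fat and exocrine pancreas, and α-klotho serves FGF23 in the kidney. FGFBP1 is a secreted carrier that frees FGFs from the matrix. SIN3B is a scaffold of a histone deacetylase complex that represses transcription.

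In GRCm39 Klb lies at chr5:65505657-65541827 (plus strand, 5 exons), Fgfr1 at chr8:26003670-26066824 (plus strand, 18 exons) and Fgfr4 at chr13:55300352-55316572 (plus strand, 18 exons). Exons of 5 of the 9 genes overlap those of another gene, so their counts are uncertain to that extent. Fgfr1 shares 125 and Fgfr3 1157 exon bases with non-coding or experimentally untested transcripts on the opposite strand, Fgf21 shares 245 with Fut1, Klb shares bases with Rpl9, and Fgfr2 shares bases with Ctbp2.

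The site of the Sin3B guide is shown because every genotype difference rests on it. It matched GRCm39 chr8:73449982-73450001 on the plus strand, in exon 1 of Sin3b, with the PAM that follows the guide in capitals.
Sin3Bsg1: tggctcccgctggggtcgttCGG
Sin3b RNA was lower in Sin3Bsg1 cells in both experiments. It stood at 88.5 and 83.3 CPM (counts scaled to the TMM-adjusted library size) in the untreated sgCtrL libraries and at 36.5 and 34.1 CPM in Sin3Bsg1, and its log2 fold change was −1.24 without IFNγ and −1.22 with IFNγ. These are RNA levels and do not measure the protein.

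The promoters of Klb and Fgfr4 are shown because both genes were higher in Sin3Bsg1 cells and their products work together as co-receptor and receptor. RefSeq promoter sequences (GRCm38.p6, 250 bases before to 50 after the start) were found for 7 of the 9 genes, and Fgfr1 and Fgf1 were not matched. Capitals mark a match to the cell-cycle homology element TTTGAA, searched on both strands.
Klb, chr5:65348161-65348460, plus strand: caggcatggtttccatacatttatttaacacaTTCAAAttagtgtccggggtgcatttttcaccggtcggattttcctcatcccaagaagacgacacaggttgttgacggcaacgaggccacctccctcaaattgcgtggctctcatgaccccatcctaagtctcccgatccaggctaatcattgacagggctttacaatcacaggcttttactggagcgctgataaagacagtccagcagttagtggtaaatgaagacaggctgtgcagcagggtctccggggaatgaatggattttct
Fgfr4, chr13:55152568-55152867, plus strand: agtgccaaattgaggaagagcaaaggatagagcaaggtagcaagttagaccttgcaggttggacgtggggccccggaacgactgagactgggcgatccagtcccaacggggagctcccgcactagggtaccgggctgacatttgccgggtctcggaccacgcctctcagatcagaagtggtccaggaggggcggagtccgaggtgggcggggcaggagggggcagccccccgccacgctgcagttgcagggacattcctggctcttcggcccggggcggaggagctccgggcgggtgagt
The Klb sequence held the element once, on the minus strand at base 33 counted from the first base shown, and 17.9% of 32851 promoters held it. The Fgfr4 sequence held none. The interferon-γ-activated sequence TTCNNNGAA, which can overlap TTTGAA, was found in 8.3% of all promoters and in none of the promoters of the 7 genes. The E-box CACGTG, found in 7.15% of all promoters, occurred in those of Fgf21 and Fgfr2. The Klb promoter held 10 CpG and 48.3% GC and the Fgfr4 promoter 20 CpG and 65.3% GC, beside a median of 7 CpG and 52.7% GC over all promoters.

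Library totals were 29499676 to 32093612 counts for the untreated cells and 18128016 to 27056813 counts for the experiment with IFNγ, so that 1 CPM stood for 18.6 to 32.1 counts. The cells expressed ductal epithelial genes: all 9 markers were at or above 1 TPM (a level scaled by gene length as well as library size) in every group, led by Krt8 or Krt18, keratins of simple epithelia. In the immune list 5 of 6 markers were at 3 counts or fewer in every library, the exception being Cd68, and endothelial markers summed to at most 0.559 TPM. The first sgCtrL library with IFNγ stood apart: its counts differed from those of the other 2 by a chi-square averaging 22 and 18.2 a gene, where these differed from each other by 4.03. Results below include this library unless stated. Without it 2945 genes in place of 2464 had an edgeR adjusted p under 0.05 between genotypes with IFNγ, and 4726 in place of 4512 for IFNγ in sgCtrL. Of the other FGF pathway genes listed below it was 17 in place of 14 and 26 in place of 24. No call among the 9 genes changed.

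Measured per gene length, Fgfr1 was by far the most abundant receptor, and it took 94.8 to 99.5% of the summed TPM of the 4 receptors in each library. Fgfr1 had a mean of 49.2 TPM in untreated sgCtrL cells, against 0.146 for Fgfr2, 0.288 for Fgfr3 and 0.240 for Fgfr4. Fgf1 followed at 9.90 TPM, then Fgfbp1 at 1.59 and Klb at 1.13 TPM, and the ranges of these last 2 in the sgCtrL libraries overlapped narrowly (1.31 to 1.86 and 0.926 to 1.33 TPM). Kl had 0 or 1 count in each of the 16 libraries, which is not detectable at this depth. Fgf21 had 7 and 6 counts in untreated sgCtrL and 2 and 9 in Sin3Bsg1 cells, and at most 2 counts in any library of the IFNγ experiment.

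**Figure D1:**
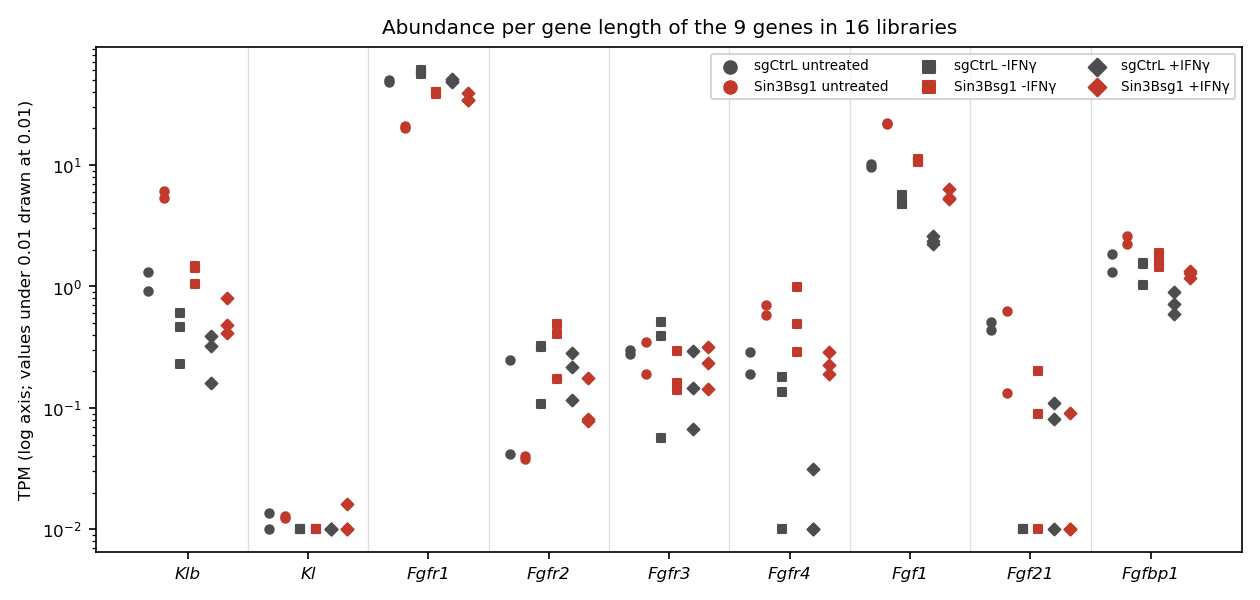
Level of each of the 9 genes in TPM on a log axis (values under 0.01 drawn at 0.01), 1 point per library, grey for sgCtrL and red for Sin3Bsg1, with circles for the untreated experiment, squares without IFNγ and diamonds with IFNγ. Fgfr1 lies above the other receptors in all 16 libraries, and Kl lies at the bottom of the axis.

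In the untreated experiment Sin3Bsg1 cells had about 5 times as much Klb RNA, more Fgf1 and Fgfr4, and less Fgfr1. Of the 9 genes 6 passed edgeR's filter on low counts, and 4 of them passed the threshold (adjusted p under 0.05 over all genes), 3 higher and 1 lower. Over all 14589 genes tested 31.1% passed, 15.1% higher and 16% lower. Fgfr4, among the 3 higher, passed the filter only through the Sin3Bsg1 libraries, where it is high. The genes were proposed with this contrast in view, and nothing is read from their share.

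Klb, the co-receptor, had 68 and 47 counts in sgCtrL and 339 and 285 in Sin3Bsg1 cells, or 2.28 and 1.60 against 10.6 and 9.22 CPM. Both Sin3Bsg1 libraries were far above both controls. The log2 fold change was 2.35 (SE 0.18), a 5.08-fold rise. Klb shares 662 of its 5042 exon bases (GENCODE, GRCm39) with Rpl9, a ribosomal protein gene on the opposite strand, and no source states whether counting used strand. Rpl9 was far more abundant than Klb, at a mean of 422.6 CPM in sgCtrL and 386.2 CPM in Sin3Bsg1 cells. Its log2 fold change was −0.13 (SE 0.02, edgeR adjusted p = 0.000779), and its part in the Klb counts was not tested.

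Fgfr1, the main receptor, stood at 122.2 and 119.1 CPM in sgCtrL and at 49.3 and 50.8 CPM in Sin3Bsg1 cells. The groups were far apart, and the log2 fold change was −1.27 (SE 0.04), 2.41-fold lower. Fgfr4, the liver-type receptor that pairs with β-klotho, had 14 and 9 counts in sgCtrL and 37 and 29 in Sin3Bsg1 cells. In each genotype contrast Fgfr4 passed the filter on low counts only through the Sin3Bsg1 libraries, where it is high, so its difference is a description that supports no count. Its log2 fold change of 1.42 (SE 0.44) passed the threshold on few counts, and did not pass with DESeq2 or without the second sgCtrL or the first Sin3Bsg1 library. Fgfr3 had 17 and 18 counts against 23 and 12, and the groups overlapped. Fgfr2 had 12 and 2 counts in sgCtrL and 2 in each Sin3Bsg1 library, did not pass the filter, and shares 314 exon bases on its own strand with Ctbp2, a transcriptional corepressor at 70.8 CPM in sgCtrL cells.

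Fgf1, the paracrine ligand that binds all of these receptors, lies at chr18:38971717-39077186 of GRCm39 (minus strand, 4 exons). It stood at 19.6 and 18.8 CPM in sgCtrL and at 42.0 and 42.7 CPM in Sin3Bsg1 cells. The Sin3Bsg1 libraries lay above the controls with little spread, at a log2 fold change of 1.14 (SE 0.06), 2.21-fold. Fgfbp1 had 0.739 and 1.05 CPM against 1.46 and 1.26 CPM. These groups did not overlap, but its log2 fold change of 0.60 (SE 0.34) did not pass the threshold.

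The balance between these genes shifted. For each 100 TPM of Fgfr1 there were 2.66 and 1.91 TPM of Klb in the sgCtrL libraries and 30.5 and 25.9 TPM in Sin3Bsg1. Fgf1 per 100 TPM of Fgfr1 went from 20.3 and 20.0 to 107.9 and 106.4. The ligand and its main receptor thus had about equal transcript levels in the Sin3Bsg1 cells of this experiment only. In the IFNγ experiment the Fgf1 value was 27.04 to 28.21 in Sin3Bsg1 libraries without IFNγ and 15.35 to 16.15 with it. The sgCtrL libraries there had 7.842 to 10.02 and 4.601 to 5.365. These ratios show an unequal change of both genes of a pair, and in bulk samples fewer cells that express a gene and less RNA per cell cannot be told apart.

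**Figure D2:**
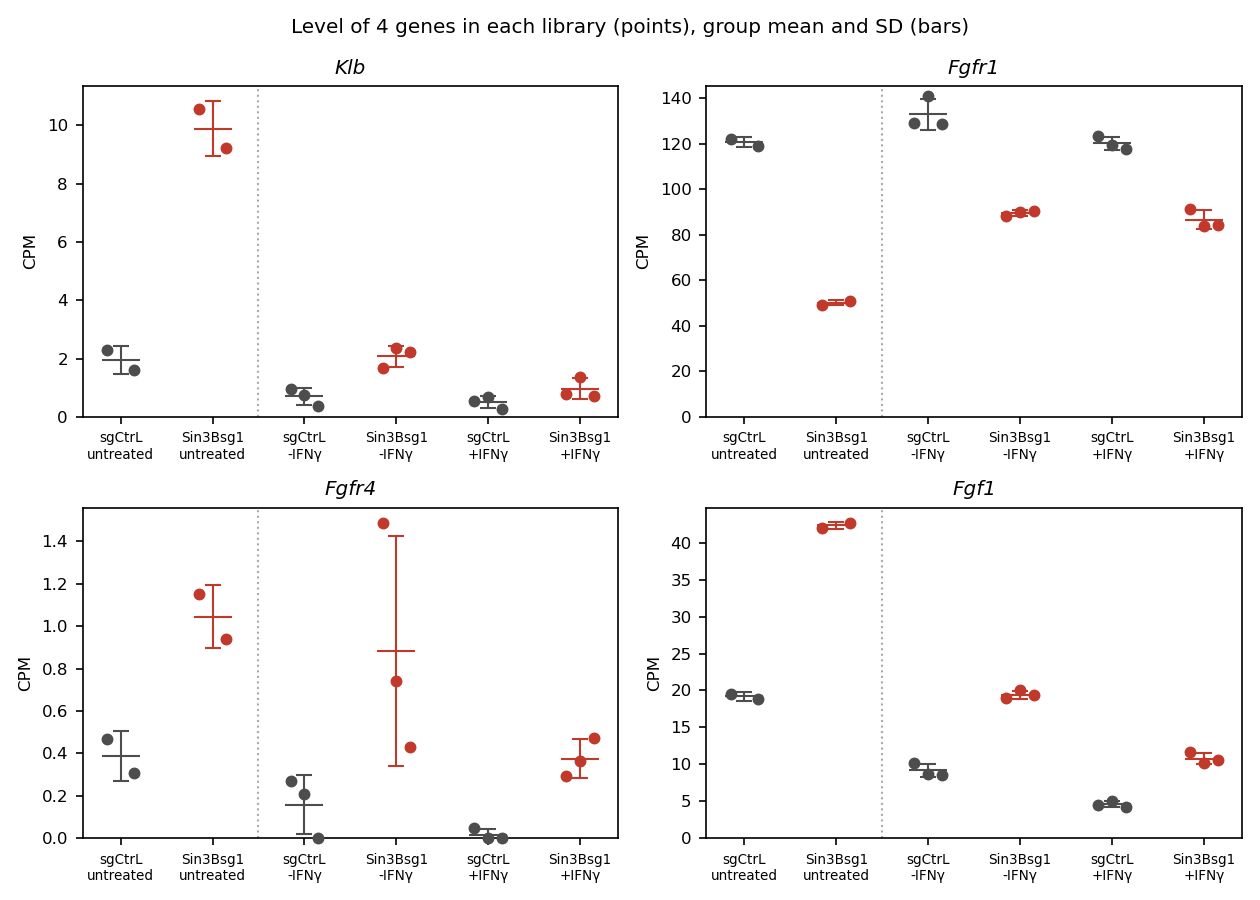
Level in CPM of Klb, Fgfr1, Fgfr4 and Fgf1 in each library (points), with the mean and SD of each group (bars), left of the dotted line the untreated experiment and right of it the IFNγ experiment, which were scaled separately. In the untreated experiment Fgfr1 was lower and Klb, Fgf1 and Fgfr4 were higher in Sin3Bsg1 libraries. The genes were chosen with this contrast known, so their separation is a description.

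Markers of the tissues best known for β-klotho were checked beside Klb. The 5 hepatocyte markers were at 3 counts or fewer in all untreated libraries. In the adipocyte list Adipoq, Plin1 and Lep were at that floor too, while Cidec, a lipid droplet gene, had a mean of 1.86 TPM in sgCtrL and 4.81 TPM in Sin3Bsg1 cells. The list summed to 1.42 to 2.29 TPM and 4.61 to 5.03 TPM, and its part in the Klb difference was not tested. Acinar markers went the other way, with a sum of 20.5 to 22.4 TPM in sgCtrL and 11.6 to 13.7 TPM in Sin3Bsg1 libraries, with 5 of 7 markers at the floor. The other 2 were both lower in Sin3Bsg1 cells, Cela1, an elastase gene, with a mean of 17.2 against 10.7 TPM and Prss2, a trypsinogen gene, with 4.30 against 1.88 TPM. The sum of fibroblast markers was lower together with Fgfr1, a receptor common in mesenchymal cells. It was 31.3 to 31.9 TPM in sgCtrL and 9.88 to 10.9 TPM in Sin3Bsg1 libraries, mostly Pdgfra. Only 2 of 7 markers, Pdgfra and Pdgfrb, reached a mean of 1 TPM. Dcn, below that, went the other way (0.118 against 0.204 TPM). The part of this sum in the Fgfr1 difference was not tested.

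Without IFNγ, in the second experiment, Klb, Fgf1 and Fgfr4 were higher and Fgfr1 was lower in Sin3Bsg1 cells. Of the 9 genes 7 passed the filter and 4 passed the threshold, 3 higher and 1 lower, where 17.2% of 14913 genes passed, 7.89% higher and 9.33% lower. The 3 higher include Fgfr4, which passed the filter only through Sin3Bsg1 libraries, so nothing is read from this count. The genes were proposed with this contrast in view too, and these passes are no independent support for those in the untreated experiment. The experiments were scaled and fitted separately, and the difference between them was not tested.

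Klb had 18, 18 and 7 counts in sgCtrL and 44, 54 and 52 in Sin3Bsg1 cells, or 0.970, 0.751 and 0.374 against 1.67, 2.35 and 2.23 CPM. The lowest Sin3Bsg1 library was above the highest control, and the log2 fold change was 1.56 (SE 0.38), 2.96-fold. Rpl9 had means of 397.8 CPM in sgCtrL and 337.4 CPM in Sin3Bsg1 cells. It was lower in Sin3Bsg1 cells here as well, at a log2 fold change of −0.24 (SE 0.08, edgeR adjusted p = 0.0465).

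Fgfr1 stood at 129.3, 140.8 and 128.5 CPM in sgCtrL and at 88.1, 90.0 and 90.6 CPM in Sin3Bsg1 cells, a log2 fold change of −0.57 (SE 0.05), 1.48-fold lower. The groups were again separate, with a smaller gap than in the untreated experiment. Fibroblast markers summed to 109.0 to 111.5 TPM in sgCtrL and 87.5 to 95.5 TPM in Sin3Bsg1 libraries. Pdgfra and Dpt made up the lower sum, whereas Pdgfrb was higher, at 12.3 to 12.6 TPM in sgCtrL and 14.0 to 14.6 TPM in Sin3Bsg1 libraries. Fgfr4 had 5, 5 and 0 counts against 39, 17 and 10. All 3 Sin3Bsg1 libraries exceeded the controls, at a log2 fold change of 2.42 (SE 0.67), which did not pass the threshold without sgCtrL replicate 2 or 3 or Sin3Bsg1 replicate 1. Fgfr2 and Fgfr3 overlapped between the groups, with log2 fold changes of 0.54 (SE 0.54) and −0.75 (SE 0.63).

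Fgf1 stood at 10.2, 8.72 and 8.60 CPM in sgCtrL and at 19.0, 20.0 and 19.3 CPM in Sin3Bsg1 cells. The gap was many times the spread, and the log2 fold change was 1.08 (SE 0.09). Fgfbp1 overlapped between the groups at a log2 fold change of 0.23 (SE 0.33). Klb per 100 TPM of Fgfr1 was 0.415 to 1.07 in sgCtrL and 2.71 to 3.71 in Sin3Bsg1 libraries.

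With IFNγ Fgf1 was higher and Fgfr1 lower in Sin3Bsg1 cells, Fgfr4 was at the floor in sgCtrL cells, and the Klb difference did not pass the threshold. Of the 7 genes tested 3 passed, 2 higher and 1 lower, where 16.5% of all genes passed, 8.62% higher and 7.90% lower. The 2 higher were Fgf1 and Fgfr4, and as Fgfr4 passed the filter only through Sin3Bsg1 libraries, nothing is read from this count. Klb had 11, 18 and 6 counts in sgCtrL and 19, 34 and 17 in Sin3Bsg1 cells, or 0.547, 0.680 and 0.270 against 0.793, 1.37 and 0.730 CPM. The groups did not overlap, but they lay close at low counts, and the log2 fold change was 0.93 (SE 0.42). It did not pass without the sgCtrL library that stood apart either.

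Fgfr1 stood at 123.3, 119.4 and 117.7 CPM in sgCtrL and at 91.3, 83.8 and 84.5 CPM in Sin3Bsg1 cells, a log2 fold change of −0.47 (SE 0.05). Fibroblast markers summed to 66.9 to 68.1 TPM and 55.9 to 61.6 TPM in these groups, and within that sum Pdgfrb again went the other way (7.53 to 7.91 against 8.32 to 10.0 TPM). Fgfr4 had 1, 0 and 0 counts in sgCtrL and 7, 9 and 11 in Sin3Bsg1 cells. Set against a floor of 3 counts in each control library it was at least 2.84-fold higher, and it did not pass the threshold without control replicate 2 or 3. Fgf1 stood at 4.52, 5.06 and 4.28 CPM in sgCtrL and at 11.7, 10.2 and 10.6 CPM in Sin3Bsg1 cells, a log2 fold change of 1.22 (SE 0.10), and every Sin3Bsg1 library was above every control. Fgfbp1 was at 0.340 to 0.495 CPM against 0.626 to 0.772 CPM, separate groups whose log2 fold change of 0.79 (SE 0.35) did not pass.

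**Figure D3:**
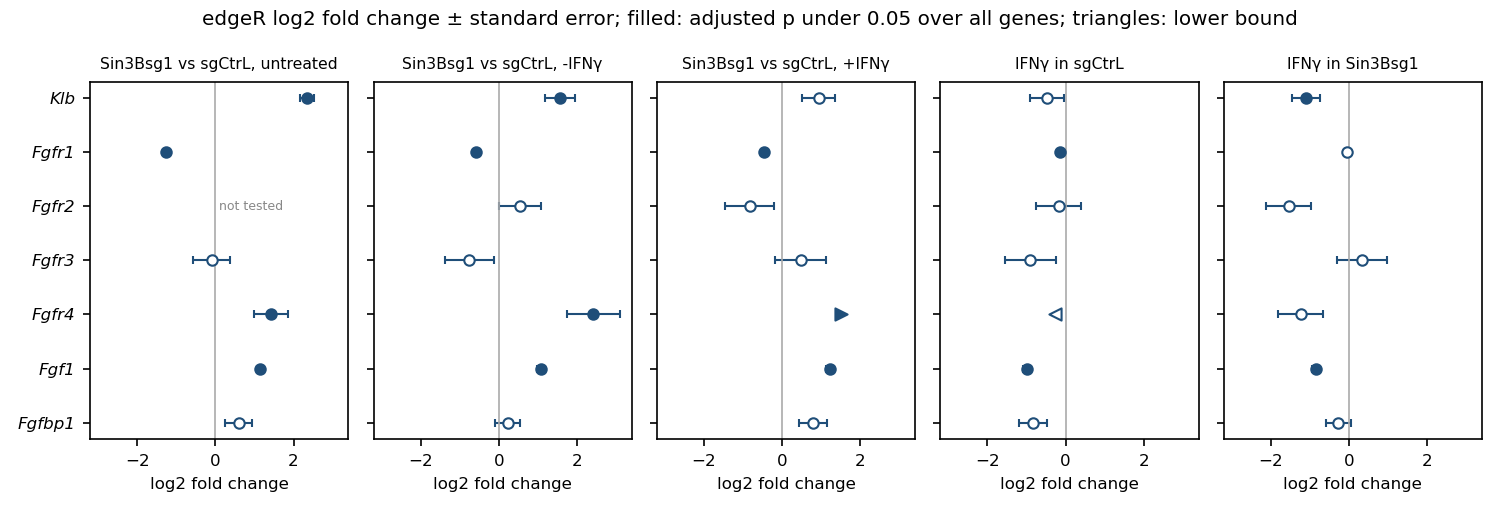
Log2 fold change of the 7 genes tested (x axis) in the 3 genotype contrasts and the 2 IFNγ contrasts, with bars of 1 standard error, filled where the adjusted p was under 0.05, and triangles for Fgfr4 where a group was at the floor and the value is a lower bound. Fgf1 lies between 1.08 and 1.22 in each genotype contrast, whereas Klb runs from 2.35 untreated to 0.93 with IFNγ.

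IFNγ, the T cell cytokine that acts through JAK-STAT signaling, lowered Fgf1 in both genotypes. In sgCtrL cells 2 of the 7 genes tested passed, both lower, where 30.3% of all genes passed and 14.5% were lower. Fgf1 fell from a mean of 9.19 to 4.62 CPM, by 0.98 on the log2 scale (SE 0.11), with no overlap. Fgfr1 fell from a mean of 132.9 to 120.1 CPM, a log2 fold change of −0.15 (SE 0.05), which did not pass without replicate 1 or 2 of the cells without IFNγ or replicate 2 or 3 of those with it. Klb ranged from 0.374 to 0.970 CPM without and from 0.270 to 0.680 CPM with IFNγ, and the overlapping groups gave a log2 fold change of −0.47 (SE 0.44). Fgfbp1 did not overlap (0.539 to 0.834 against 0.340 to 0.495 CPM), yet its log2 fold change of −0.83 (SE 0.36) did not pass. Fgfr4 was at the floor with IFNγ, at least 1.20-fold lower than the mean without it, but the counts of 5, 5 and 0 against 1, 0 and 0 overlap. It did not pass with all libraries, and passed in 1 of the 6 fits that left out a library.

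In Sin3Bsg1 cells 2 of 7 passed, both lower, where 28.4% of all genes passed and 12.3% were lower. Fgf1 fell from a mean of 19.4 to 10.8 CPM, by 0.85 on the log2 scale (SE 0.09). Klb fell from 1.67 to 2.35 CPM without to 0.730 to 1.37 CPM with IFNγ, by 1.10 (SE 0.36). The groups were separate, but the difference did not pass the threshold without replicate 2 or 3 of the cells without IFNγ, or replicate 1 or 3 of those with it, at log2 fold changes from −1.05 to −0.96. Fgfr1 overlapped between the groups (88.1 to 90.6 against 83.8 to 91.3 CPM). Fgfr2 and Fgfr4 had log2 fold changes of −1.54 (SE 0.58) and −1.24 (SE 0.58) that did not pass. Leaving out each of the 6 libraries, Fgfr2 ran from −2.05 to −1.26 and passed in 1 of these fits. Rpl9 differed by 0.02 or less in these IFNγ contrasts.

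The genotype effect did not differ detectably with IFNγ for any of the 7 genes tested. The interaction of genotype and IFNγ, the change of the genotype difference under IFNγ, was −0.63 (SE 0.57) for Klb, 0.10 (SE 0.07) for Fgfr1 and 0.13 (SE 0.14) for Fgf1 on the log2 scale. By edgeR 0 of the 7 genes tested passed the threshold, where 0.114% of all genes passed, 0.0805% higher and 0.0335% lower. At an unadjusted edgeR p under 0.05 it was 0 of the 7 too, where 810 of all 14913 genes lay under it. DESeq2 passed 0 of the 7 at the threshold. For Klb an interval of 2 standard errors runs from −1.78 to 0.52, which is wide at this depth.

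In the IFNγ experiment the Klb means stood in the order Sin3Bsg1 without IFNγ (2.09 CPM), Sin3Bsg1 with IFNγ (0.965 CPM), sgCtrL without IFNγ (0.698 CPM) and sgCtrL with IFNγ (0.499 CPM). The top group was separate from the next, while both other pairs of neighbours overlapped. Fgf1 had the order Sin3Bsg1 without IFNγ (19.4 CPM), Sin3Bsg1 with IFNγ (10.8 CPM), sgCtrL without IFNγ (9.19 CPM) and sgCtrL with IFNγ (4.62 CPM), and of these neighbours Sin3Bsg1 with IFNγ and sgCtrL without it, at 10.2 to 11.7 and 8.60 to 10.2 CPM, overlapped at their edges.

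The genes whose log2(CPM + 1) followed Klb most closely over the 12 libraries of the IFNγ experiment, among 12744 genes with a mean of at least 1 CPM, were Sema3b (Pearson r = 0.948), Tnfaip2 (r = 0.943), Pdxk (r = 0.926), Rasgef1a (r = 0.925) and Acad8 (r = 0.925). The libraries share the 4 groups, so r mostly reflects group means and is given as a description. Sema3b, a secreted semaphorin, had means of 12.2 and 19.0 CPM in sgCtrL and Sin3Bsg1 cells without IFNγ and 10.3 and 13.8 CPM with it. Rasgef1a, an exchange factor for Ras-family GTPases, was at a level like that of Klb, 0.660 and 2.07 CPM without IFNγ and 0.284 and 1.27 CPM with it. In the untreated experiment, which did not enter the choice, the log2 fold change was 1.73 (SE 0.44) for Rasgef1a, 0.60 (SE 0.06) for Pdxk, the pyridoxal kinase, 0.36 (SE 0.07) for Acad8, a mitochondrial dehydrogenase, 0.19 (SE 0.08) for Sema3b and −0.06 (SE 0.03) for Tnfaip2.

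Other genes of the FGF pathway were counted from 6 lists with 84 genes, of which 60 were tested in the untreated experiment and 59 in the other. In Sin3Bsg1 cells 7 were higher and 20 lower untreated, 6 and 12 without IFNγ, and 5 and 9 with IFNγ. Over all genes 15.1% were higher and 16% lower untreated, 7.89% and 9.33% without IFNγ, and 8.62% and 7.90% with IFNγ. The median log2 fold change of the lists was −0.08, −0.05 and −0.06 against 0.00, −0.01 and 0.00 over all genes. IFNγ raised 8 and lowered 16 in sgCtrL, where 15.7% and 14.5% of all genes rose and fell, and raised 8 and lowered 15 in Sin3Bsg1 cells, where 16.1% and 12.3% did. The genes named are the 2 largest changes past the threshold in each list and contrast, with edgeR's adjusted p over all genes where one is given. Some of them are also followed in other contrasts.

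Most other ligands were too low to test: of 20 listed 4 passed the filter untreated and 3 in the IFNγ experiment. Fgf2, another paracrine ligand of FGFR1, was lower in untreated Sin3Bsg1 cells (6.47 to 4.32 CPM, log2 fold change −0.58, SE 0.16, edgeR adjusted p = 0.00912), opposite to Fgf1. It was lower with IFNγ in Sin3Bsg1 cells (−0.53, SE 0.19, edgeR adjusted p = 0.0444). Fgf11, an intracellular FGF that is not secreted, was higher in untreated Sin3Bsg1 cells (0.557 to 1.39 CPM, log2 fold change 1.32, SE 0.39, edgeR adjusted p = 0.0174). None of the 3 ligands tested passed between genotypes in the IFNγ experiment.

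Among the receptor-like and binding proteins Flrt3, a membrane protein that interacts with FGF receptors, was higher in untreated Sin3Bsg1 cells (47.1 to 68.2 CPM, log2 fold change 0.54, SE 0.05, edgeR adjusted p = 1.73e-07). Its genotype difference did not pass without IFNγ (0.02, SE 0.05) or with it. IFNγ lowered Flrt3 by a log2 fold change of −0.67 in sgCtrL and −0.70 in Sin3Bsg1 cells. Fgfrl1, a receptor without a kinase domain, was lower in untreated Sin3Bsg1 cells (27.4 to 20.4 CPM, log2 fold change −0.43, SE 0.07, edgeR adjusted p = 0.00027). It did not pass without (−0.07, SE 0.13) or with IFNγ (−0.25, SE 0.13). Flrt1 was lower in Sin3Bsg1 than in sgCtrL cells without IFNγ (0.421 to 0.0939 CPM), which is very low. It had at most 4 counts in these Sin3Bsg1 libraries. Flrt1 passed the filter on low counts only through sgCtrL libraries, where it is high, so its difference is a description that supports no count.

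Heparan sulfate genes make and carry the chains that paracrine FGFs bind. Of 17 tested, 3 were higher and 8 lower in untreated Sin3Bsg1 cells, beside 15.1% higher and 16% lower over all genes, and the median log2 fold change was −0.13. Hs3st1, a 3-O-sulfotransferase, was higher in Sin3Bsg1 cells in every genotype contrast: 5.93 to 14.1 CPM untreated (log2 fold change 1.24, SE 0.11, edgeR adjusted p = 2.1e-07), 0.96 without and 0.87 with IFNγ. Sulf2, which removes 6-O-sulfates, was lower in untreated Sin3Bsg1 cells (log2 fold change −0.92, SE 0.33, edgeR adjusted p = 0.0485). It was also lower without IFNγ (2.72 to 1.17 CPM, log2 fold change −1.21, SE 0.26, edgeR adjusted p = 0.00355) and with IFNγ (−1.50, SE 0.28, edgeR adjusted p = 0.00141). The core protein gene Sdc3 was lower untreated (2.72 to 1.30 CPM, −1.06, SE 0.26, edgeR adjusted p = 0.0052) and without IFNγ (−0.93, SE 0.27, edgeR adjusted p = 0.0267). IFNγ lowered Hspg2, the perlecan core protein, by −0.63 in sgCtrL and −0.57 in Sin3Bsg1 cells on the log2 scale, and in sgCtrL its SD with IFNγ was 44.1 CPM around a mean of 182.0. IFNγ also lowered Hs3st3b1, another sulfotransferase, in sgCtrL (−0.60) and Gpc1, a glypican, in Sin3Bsg1 cells (−0.51).

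Adaptors and Ras-MAPK proteins carry the signal from the receptor. In untreated Sin3Bsg1 cells 0 of 17 were higher and 6 lower by edgeR, in all a share near the 31.1% of all genes. The largest were Gab1 (log2 fold change −0.33, SE 0.07, edgeR adjusted p = 0.00167) and Frs2, the docking protein of FGF receptors (−0.28, SE 0.04, edgeR adjusted p = 7.92e-05). Without IFNγ neither Gab1 (−0.15, SE 0.09) nor Frs2 (0.02, SE 0.06) passed between genotypes. Plcg1, the phospholipase that binds activated receptors, was lower in Sin3Bsg1 cells untreated (−0.26), without (−0.32) and with IFNγ (−0.35). Ptpn11, the phosphatase SHP2, was lower untreated (−0.19) and without IFNγ (−0.22), and Mapk3, the kinase ERK1, was higher in Sin3Bsg1 cells with IFNγ (0.29). IFNγ raised Map2k1, a MAPK kinase, in sgCtrL (0.29) and Sin3Bsg1 cells (0.39), and it lowered Mapk3 in sgCtrL (−0.32) and the adaptor Shc1 in Sin3Bsg1 cells (−0.33).

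Of the feedback inhibitors, 10 of 11 listed were in the tables, and all 10 were tested. In untreated Sin3Bsg1 cells 1 was higher and 1 lower, beside 15.1% higher and 16% lower over all genes. The lower was Spred3 (30.7 to 25.6 CPM, log2 fold change −0.26, SE 0.07, edgeR adjusted p = 0.0123). Dusp6, the ERK phosphatase, was higher in untreated Sin3Bsg1 cells (245.1 to 285.8 CPM, log2 fold change 0.22, SE 0.03, edgeR adjusted p = 4.44e-06). It was also higher in Sin3Bsg1 than in sgCtrL cells without (0.18) and with IFNγ (0.20). After IFNγ it was higher in both genotypes (0.48 in sgCtrL and 0.50 in Sin3Bsg1). Spry4, a Sprouty inhibitor, was lower with IFNγ in both (−0.51 and −0.42). In Sin3Bsg1 cells without IFNγ Spry2 was higher (0.37) and Spry1 lower (−0.25).

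Of the 8 transcriptional targets of the pathway, 1 was higher and 3 lower in untreated Sin3Bsg1 cells, beside 15.1% higher and 16% lower over all genes. Fosl1, an AP-1 factor, was lower (66.3 to 37.5 CPM, log2 fold change −0.82, SE 0.05, edgeR adjusted p = 1.62e-09). In the other experiment its genotype difference did not pass without (−0.11, SE 0.08) or with IFNγ (−0.21, SE 0.07). Etv1, an ETS factor, was lower in each genotype contrast (−0.70 untreated, −0.38 without and −0.31 with IFNγ). Phlda1 was higher in Sin3Bsg1 cells without (0.30) and with IFNγ (0.28). Egr1, an immediate early gene, was higher with IFNγ (0.96 in sgCtrL and 0.90 in Sin3Bsg1), and Ier3 was lower (−0.67 and −0.75).

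**Figure D4:**
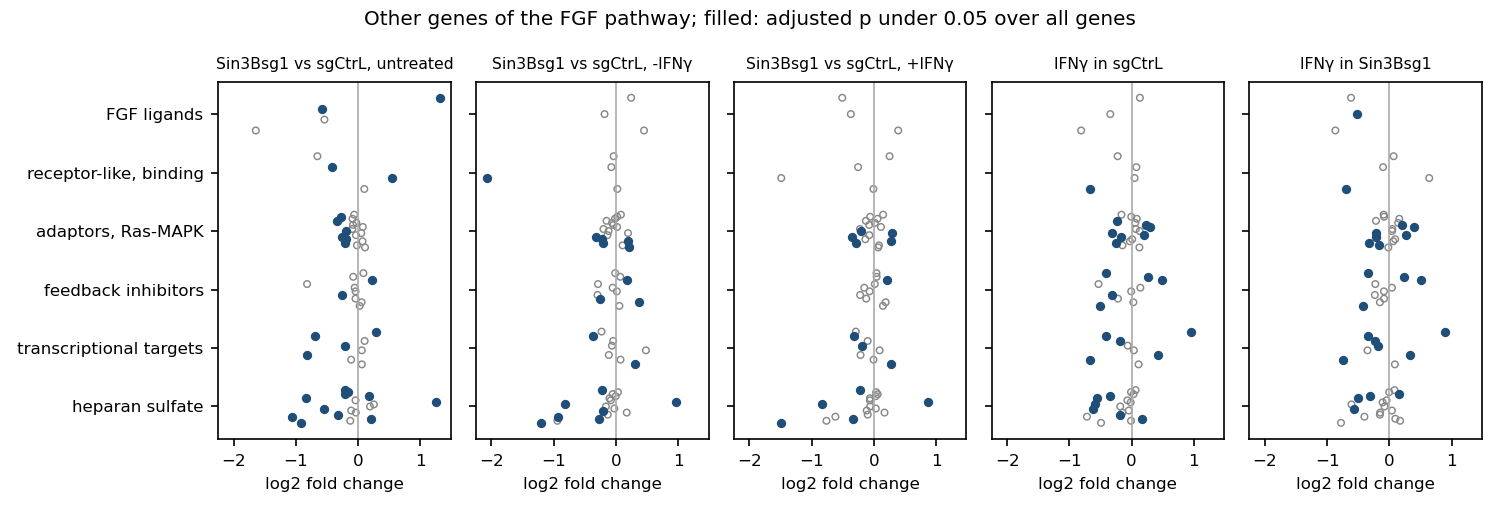
Log2 fold change of the other genes of the FGF pathway (x axis), 1 point per gene tested in the 6 lists (rows), in the 3 genotype and 2 IFNγ contrasts, filled where the adjusted p was under 0.05. Adaptors lie close to 0, and heparan sulfate genes reach 1.24 (Hs3st1) and −1.06 (Sdc3) in the untreated experiment.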

How the data were processed

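RNA-seq was deposited for 16 libraries of KPC1199 cells. What the authors deposited are estimated counts per gene, made by alignment and counting and not normalized, with gene lengths, in 2 tables. Their methods name mm9, HISAT2 and featureCounts on uniquely mapped reads, whereas the submitters' processing notes name fastp, HISAT2, StringTie, DESeq2 and mm39. Versions, annotation and strand setting are not given in the sources used here. The columns named for a lacZ guide were read as sgCtrL, since Sin3Bsg1 is the only other guide in either table. Columns of group means were not used.

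Counts were rounded, and 324 assembled loci without a gene identifier (0.615 to 0.677% of counts) were left out of the untreated table. edgeR 4.0.16 in R 4.3.3 (TMM, filterByExpr, quasi-likelihood F test, two-sided, Benjamini-Hochberg adjustment, threshold 0.05) was fitted to the 4 untreated libraries and, with 1 mean per group, to the 12 libraries of the IFNγ experiment, never to both. Biological coefficients of variation were 2.84% and 6.78%. The standard error (SE) is the size of the log2 fold change over the root of F. CPM are within a table and TPM use the deposited lengths. The floor is 3 counts in each library, which covers counting error only. DESeq2 1.42.0, other scaling, other filters, a fit on the 6 libraries of a contrast, a replicate block and leaving out each library were alternatives, and the fits were tested on simulated data. The members and lists were chosen with earlier results of these data known. The genes named are the 9 members, the 2 largest changes past the threshold in each pathway list and contrast, the 5 genes most like Klb, Sin3b, and genes whose exons overlap a member. No library was a duplicate of another. Figures were drawn with matplotlib 3.10.9 in Python 3.11.15.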

Additional observations from a re-analysis of the deposited data

How the results depend on the processing

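Under settings other than leaving out a library, 194 fold changes of the 9 genes kept their direction and side of the threshold, 3 no longer passed (Fgfr4 untreated with DESeq2, Fgfr1 in sgCtrL with IFNγ without a filter and on 6 libraries) and 1 newly passed (Fgfr4 in sgCtrL with IFNγ, without a filter). The causes were not tested. On the 6 libraries of a contrast alone, 3996 genes passed without IFNγ (2568 on 12 libraries) and 1500 with IFNγ (2464), 8 pathway genes with IFNγ (14) and 1 of the 9 genes for IFNγ in sgCtrL (2). With at least 10 counts in every library, where low genes are not tested, 2 of the 9 genes passed without IFNγ (4) and 1 for IFNγ in Sin3Bsg1 (2). The interaction passed for 17 genes, 32 with DESeq2 and 110 without a filter.

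Leaving out 1 library at a time, where a lone untreated library is assumed to vary like the other group, gave 1 to 33 genes for the interaction (33 without the first sgCtrL library with IFNγ, 1 without sgCtrL replicate 3 or Sin3Bsg1 replicate 2, both without IFNγ), 11 to 15 pathway genes without IFNγ (18 with all; 11 without Sin3Bsg1 replicate 3), 1 to 3 of the 9 genes for IFNγ in sgCtrL and 1 to 2 for IFNγ in Sin3Bsg1, where the Klb log2 fold change ran from −1.47 to −0.96. Directions that turned were all below the threshold: Fgfr3 untreated (−0.60 to 0.27, above 0 without Sin3Bsg1 replicate 2), Fgfr2 for IFNγ in sgCtrL (−0.57 to 0.12, with 0.05 and 0.04 without replicates 1 and 3 of the cells without IFNγ), and Fgfr3 for IFNγ in Sin3Bsg1 (−0.000942 to 0.72, below 0 without replicate 2 with IFNγ).

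Replicate numbers did not clearly pair the libraries of the IFNγ experiment. The 18 same-numbered pairs from different groups had correlations of their deviations from −0.197 to 0.232 (median −0.00471). The 36 differently numbered pairs had −0.25 to 0.242 (median −0.00216), and 5 pairs of each kind were over 0.1. The untreated value was −0.0208 for same and 0.0208 for different numbers. With 2 libraries a group their deviations mirror each other, so this says little about pairing. With a replicate block 4675 genes passed untreated (4543 without the block) and 2511 without IFNγ (2568), and the block changed no call among the 9 genes. In the IFNγ experiment Klb, Fgfr4 and Fgfbp1 had at most 54 counts in a library, which limits what differences could be detected.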
